A study of Mus musculus with 24 samples.

Results

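A set of 21 genes was expressed by EO771 cells with a control vector. In populations transduced with the chemokine receptor gene Ccr7 they stood at no more than 1/8 of that level. Loxl2, Rnf43, Rhox1 and Xkr5 kept the smallest shares, at most 1.03% of the control level in each population. The 21 genes were chosen by their read counts, out of 11197 genes with a mean of at least 1 CPM (a gene's count per 1e6 counts of its library) in the vector control of both batches. A gene was kept when its mean CPM in CCR7 and in both CCR7-PDPN populations was at most 12.5% of that in the vector control of the same batch. The loss itself is therefore what selected the genes, and it is given below as a description without a test.

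EO771 is a mammary carcinoma line from a spontaneous tumour of a C57BL/6 mouse, and all groups were grown in RPMI medium with fetal bovine serum. X2 was the vector control of the retroviral transduction, and cells with and without Ccr7 carried a tdTomato reporter. CCR7 cells were transduced with mouse Ccr7 and sorted as podoplanin-negative according to the count table, and CCR7-PDPN cells were the part of the CCR7-transduced cells sorted for spontaneous podoplanin (PDPN), a surface glycoprotein of lymphatic vessels and lymph node stroma. X2-PDPN cells were X2 cells sorted for podoplanin, so they share the sort with CCR7-PDPN but not the transduced gene. Each group had 4 libraries per batch. X2 and CCR7-PDPN were sequenced in both batches, CCR7 in batch 1 alone and X2-PDPN in batch 2 alone. The protocol states that no clones were picked, whereas the design text calls the populations subclones. The libraries of a group were technical replicates of 1 population. The spread and the p-values given here therefore do not cover differences between independently transduced or independently sorted cells. An effect of Ccr7 cannot be told apart from any other property of the Ccr7-transduced population. In bulk RNA, fewer cells expressing a gene and less RNA per cell cannot be told apart either.

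The 24 libraries held 22275468 to 35721027 counts. Ccr7 stood at 2791 to 3145 CPM in the 3 CCR7-transduced groups and at 0.344 to 0.662 CPM in the other groups, and Pdpn at 24.4 to 25.7 CPM in the 3 groups sorted as podoplanin-positive and at 0.0626 to 0.413 CPM in the others, as the labels say. Of the markers of a mammary carcinoma cell, Krt8 had 225 to 295 CPM and Vim 2330 to 2966 CPM in the group means, while Krt18 and Epcam reached no more than 9 and 2 counts in any library of batch 1. T and NK cell markers summed to at most 0.138 CPM in a library of batch 1, while the myeloid markers there ranged from Itgam with no more than 1 count to Cd14 with up to 76 and Lyz2 with up to 214 counts.

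The set mixed genes of different kinds. Loxl2 encodes a secreted lysyl oxidase that crosslinks collagen, and Rnf43 a membrane ubiquitin ligase that removes Frizzled receptors and so dampens Wnt signalling. Other secreted products were Bmp7, a bone morphogenetic protein, Ntn4, a netrin of basement membranes, Psg22, a pregnancy-specific glycoprotein, and Fndc4, a fibronectin type III domain protein. At the membrane were Adgrg3, an adhesion G protein-coupled receptor, Trpv3, a warmth-gated cation channel of keratinocytes, Clec2d, a C-type lectin seen by receptors of natural killer cells, and Xkr5 of the XK-related family. Pde4b degrades cyclic AMP, Stard8 has a lipid-binding START domain, and Mboat1 transfers acyl chains to lysophospholipids. Ifi211 of the p200 family is interferon-induced. Rhox1 is a homeobox gene of the reproductive X-linked cluster, Phf11d a PHD finger gene, Scel (sciellin) a protein of the cornified envelope, Cfap58 a protein of cilia and flagella, and Armcx1 an armadillo repeat gene of the X chromosome. Gm5622 is a gene model that overlaps 9 other annotated genes, 4 of them on its own strand, so its counts are uncertain.

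Summed over the 21 genes, X2 libraries held 182 to 186 CPM in batch 1 and 173 to 183 CPM in batch 2. In CCR7 libraries the sums were 5.43 to 6.65 CPM, and CCR7-PDPN libraries held 3.57 to 4.69 CPM in batch 1 and 3.73 to 4.17 CPM in batch 2. X2-PDPN, which the rule did not use, held 149 to 155 CPM. Loxl2, Rnf43 and Rhox1 made 51.6% and 51.5% of the sum in X2 of batch 1 and batch 2, but 4.26% of it in CCR7. Per transcript length, Rhox1 was the most abundant of the set in X2, with a mean over both batches of 116 TPM (a count per transcript length, scaled to a common total), followed by Loxl2 with 26.7 TPM, Rnf43 with 14.9 TPM, Stard8 with 9.85 TPM, Bmp7 with 8.12 TPM and Scel with 7.71 TPM. The other 15 genes lay between 1.65 TPM for Trpv3 and 6.57 TPM for Psg22. The X2 level barely moved between batches, with a ratio of batch 2 to batch 1 between 0.841 for Armcx1 and 1.16 for Cfap58.

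**Figure D1:**
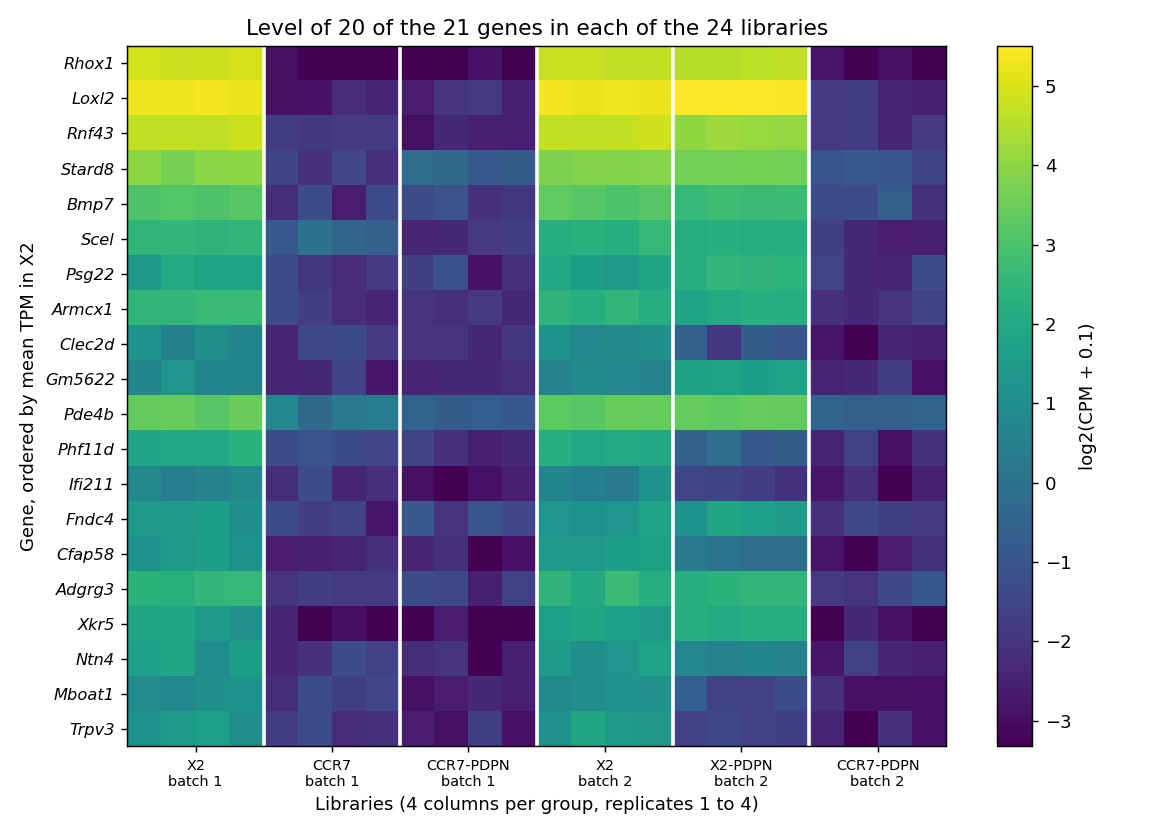
Level of 20 of the 21 genes (rows, ordered by mean TPM in X2) in each of the 24 libraries (columns, 4 per group), as log2 of CPM plus 0.1, with brighter colour for a higher level. Each of the 20 rows is darker in the 12 CCR7-transduced libraries than in its own X2 libraries. X2-PDPN keeps most rows near X2 and darkens in Trpv3, Phf11d, Ifi211, Mboat1 and Clec2d.

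Loxl2 lost the most reads in absolute terms. Its 4 X2 libraries of batch 1 had 39.2, 39.2, 40.4 and 37.5 CPM, and those of batch 2 had 40.4, 38.3, 39.9 and 37.5 CPM. In CCR7 the libraries had 0.0312, 0.0344, 0.120 and 0.0898 CPM, which is 8 reads in all against 4400 in X2. CCR7-PDPN had 0.0625, 0.159, 0.175 and 0.0668 CPM in batch 1 and 0.176, 0.191, 0.0942 and 0.0728 CPM in batch 2. No CCR7-transduced library exceeded 0.191 CPM and no X2 library fell below 37.5 CPM, and the means kept 0.176% of the X2 level in CCR7, with CCR7-PDPN at 0.296% in batch 1 and 0.342% in batch 2. X2-PDPN went the other way, with 44.9, 45.3, 44.5 and 43.8 CPM, all above the X2 libraries.

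Rnf43 showed the same steep loss with a partial change in X2-PDPN. The X2 libraries had 26.0, 25.9, 25.3 and 28.5 CPM in batch 1 and 25.6, 25.2, 25.9 and 28.8 CPM in batch 2. CCR7 had 0.187, 0.172, 0.180 and 0.180 CPM, and CCR7-PDPN of batch 1 had 0.0313, 0.0953, 0.0699 and 0.0668 CPM, so the CCR7-PDPN libraries lay below the CCR7 libraries without overlap. CCR7-PDPN of batch 2 had 0.176, 0.191, 0.0942 and 0.182 CPM, which reached the CCR7 level of batch 1. In X2-PDPN, Rnf43 stood at 16.2, 18.3, 17.7 and 16.5 CPM, below each X2 library and 65.0% of the X2 mean.

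Rhox1 came closest to complete silence. It had 29.1 ± 1.40 CPM (SD, n = 4) in X2 of batch 1 and 26.4 ± 0.744 CPM in batch 2, and 24.3 ± 1.03 CPM in X2-PDPN. Over the 4 libraries of a group, CCR7 had 1 read, and CCR7-PDPN had 1 read in batch 1 and 2 reads in batch 2, whereas X2 had 3280 and 3032. With so few reads the ratios are given with exact 95% intervals, which cover counting error only. X2 exceeded CCR7 by a factor between 610 and 134402, CCR7-PDPN of batch 1 by a factor between 638 and 140486, and CCR7-PDPN of batch 2 by a factor between 413 and 12349. Xkr5 had 2 reads in CCR7-PDPN of batch 1 against 338 in X2, a factor between 50.3 and 1519, and 4 reads each in CCR7 and in CCR7-PDPN of batch 2. No gene of the set was at 0 in a whole group.

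**Figure D2:**
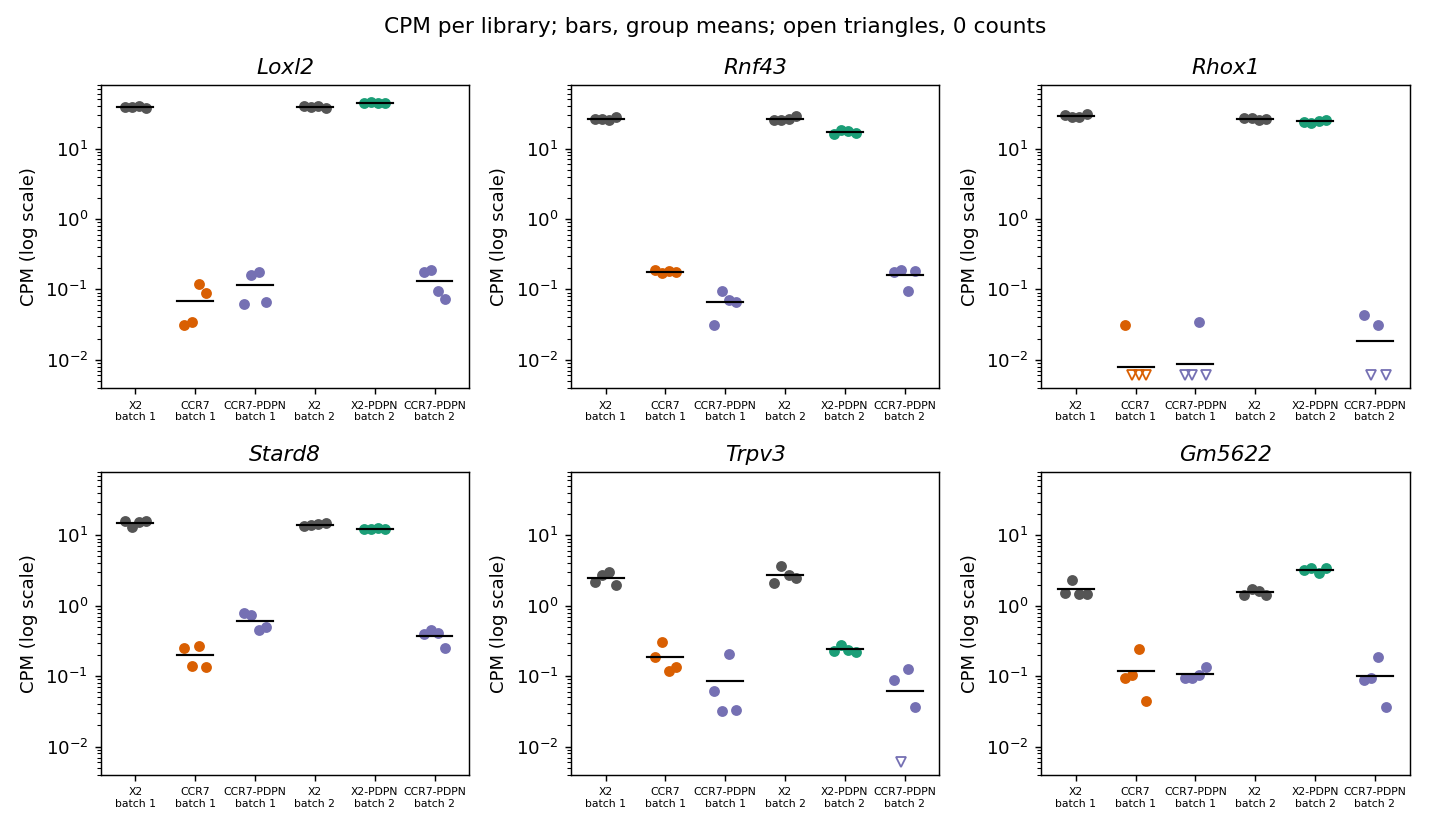
CPM on a log axis in each library of the 6 groups for 6 of the genes, with black bars for group means and open triangles at the foot of the axis for libraries with 0 counts. Loxl2, Rnf43 and Rhox1 drop from 25.2 to 40.4 CPM in X2 to at most 0.191 CPM in each CCR7-transduced library, Trpv3 is low in X2-PDPN too, and Gm5622 is higher in X2-PDPN than in X2.

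Stard8 and Bmp7 were the next most abundant by length. The Stard8 X2 libraries had 12.9 to 16.1 CPM in batch 1 and 13.4, 14.2, 14.2 and 14.8 CPM in batch 2, and those of CCR7-PDPN in batch 2 had 0.395, 0.446, 0.408 and 0.255 CPM. X2-PDPN, with 12.2, 12.3, 12.6 and 12.4 CPM, lay just under X2. Bmp7 had 8.59 ± 0.550 CPM (SD, n = 4) in X2 of batch 1, 0.202 ± 0.129 CPM in CCR7 and 0.250 ± 0.116 CPM in CCR7-PDPN. In batch 2 it had 9.06 ± 0.867 CPM in X2, 70.7% of that in X2-PDPN and 0.326 ± 0.159 CPM in CCR7-PDPN. The ligand gene was thus partly lower in X2-PDPN and at 2.35% to 3.60% of X2 in the CCR7-transduced groups.

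The remaining losses were graded. In X2 of batch 1 the means were 15.1 CPM for Stard8, 10.4 for Pde4b, 8.59 for Bmp7, 5.88 for Armcx1, 5.43 for Scel, 5.30 for Adgrg3, 3.94 for Phf11d, 3.36 for Psg22, 3.03 for Xkr5, 2.89 for Ntn4, 2.63 for Fndc4, 2.49 for Cfap58, 2.48 for Trpv3, 1.92 for Mboat1, 1.79 for Clec2d, 1.70 for Gm5622 and 1.52 for Ifi211. As a share of X2, CCR7 kept a median of 6.80% over the 21 genes (range 0.0268% to 12.4%), CCR7-PDPN of batch 1 kept 3.40% (0.0300% to 12.5%) and CCR7-PDPN of batch 2 kept 2.99% (0.0714% to 7.98%). The lowest value of each range was that of Rhox1 and rested on 1 or 2 reads. Stard8, Bmp7, Armcx1, Adgrg3, Cfap58, Psg22 and Xkr5 kept 0.523% to 5.95% in these 3 groups, the lowest from 2 reads of Xkr5. CCR7 kept 10.9% to 11.9% of Pde4b, Scel, Clec2d, Mboat1 and Ifi211, whereas CCR7-PDPN kept 2.19% to 8.19% of them.

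The last gene inside the limit was Fndc4, with 12.5% of X2 in CCR7-PDPN of batch 1, and the nearest genes outside it were Rasgrp3 with 14.1%, Clip4 with 14.6% and Col15a1 with 14.9%, each in CCR7. CCR7 was the strictest group, since 26 genes met the limit there, whereas CCR7-PDPN taken alone had 88 in batch 1 and 90 in batch 2. The CCR7 and CCR7-PDPN ratios of batch 1 share their X2 libraries. Only 10 genes met the same limit in X2-PDPN. In the other direction, 11 genes including Ccr7 itself were at least 8-fold higher in all 3 CCR7-transduced groups. Leaving out CCR7 replicate 1 left 17 genes, with Clec2d, Mboat1 and Scel among those removed.

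In the fit of all genes by edgeR, a gene was called when its adjusted p was under 0.05 and its log2 fold change was above 1 in size. All 21 were called lower in CCR7 against X2, where 3.18% of 13261 genes were called lower and 3.3% higher. All 21 were also called lower in CCR7-PDPN against X2, where batch 1 had 5.36% of genes lower and 4.09% higher and batch 2 had 5.67% of 13314 genes lower and 3.96% higher. These are the contrasts that selected the genes, and nothing is read from these counts.

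X2-PDPN against X2 asks whether the podoplanin sort alone, without Ccr7, went with the same losses. The X2-PDPN libraries had no part in the selection, although the X2 libraries of batch 2 did. Of the 21 genes, 7 fell, 1 rose and 13 were not called, against 1.55% of all genes lower and 3.51% higher. Trpv3, Phf11d, Ifi211, Mboat1, Clec2d and Cfap58 were among the genes that fell, and Gm5622 rose. With X2 left out of the batch 2 fit, Trpv3, Ifi211, Mboat1 and Clec2d had too few reads to be tested. They passed the filter on low counts through X2 alone, which the rule required to be high. Their part in the count of 7 is therefore a description. Over the 21 genes the median log2 fold change came to -0.26, beside 0.00116 over all genes tested. X2-PDPN kept a median of 83.2% of the X2 level, with 11 genes above 75%, 5 between 25% and 75%, and 5 under 25%.

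Trpv3 fell the furthest without Ccr7. Its X2 libraries of batch 2 had 2.12, 3.65, 2.70 and 2.47 CPM, and its X2-PDPN libraries 0.230, 0.280, 0.237 and 0.221 CPM. The groups did not overlap, with a log2 fold change of -3.46 (SE 0.25). At 8.84% of X2, Trpv3 was below the limit of 12.5% in X2-PDPN too, beside 7.58% in CCR7 and 3.40% and 2.28% in CCR7-PDPN of batch 1 and batch 2.

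Phf11d and the interferon-induced Ifi211 followed. Phf11d had 4.54, 3.76, 4.09 and 3.93 CPM in X2 and 0.557, 0.784, 0.440 and 0.515 CPM in X2-PDPN (log2 fold change -2.78, SE 0.19, adjusted p 4.35e-17). Ifi211 had 1.49, 1.29, 1.15 and 2.23 CPM in X2 and 0.262, 0.252, 0.203 and 0.147 CPM in X2-PDPN (log2 fold change -2.78, SE 0.30). Neither gene's groups overlapped. Mboat1 fell by 2.61 on the log2 scale, Clec2d by 2.22 and Cfap58 by 1.63 (adjusted p 1.48e-10 for Cfap58).

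Gm5622 was the member that rose past the fold limit. It had 1.42, 1.72, 1.62 and 1.43 CPM in X2 and 3.18, 3.42, 2.95 and 3.42 CPM in X2-PDPN, without overlap (log2 fold change 1.08, SE 0.15, adjusted p 4.26e-08). Psg22 (log2 fold change 0.67, SE 0.12, adjusted p 8.93e-06), Xkr5 (0.53, SE 0.12, adjusted p 0.000249) and Loxl2 (0.20, SE 0.04, adjusted p 4.19e-05) were higher by less than the fold limit. Their levels in X2-PDPN were 157%, 144% and 114% of X2. On the lower side, Ntn4 (-0.79), Rnf43 (-0.61), Bmp7 (-0.49), Armcx1 (-0.26) and Stard8 (-0.19) had adjusted p-values under 0.05 without reaching the fold limit. Rhox1 (-0.11), Scel (-0.17), Adgrg3 (0.02), Pde4b (0.04) and Fndc4 (0.20) had adjusted p-values of 0.0569 to 0.919.

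**Figure D3:**
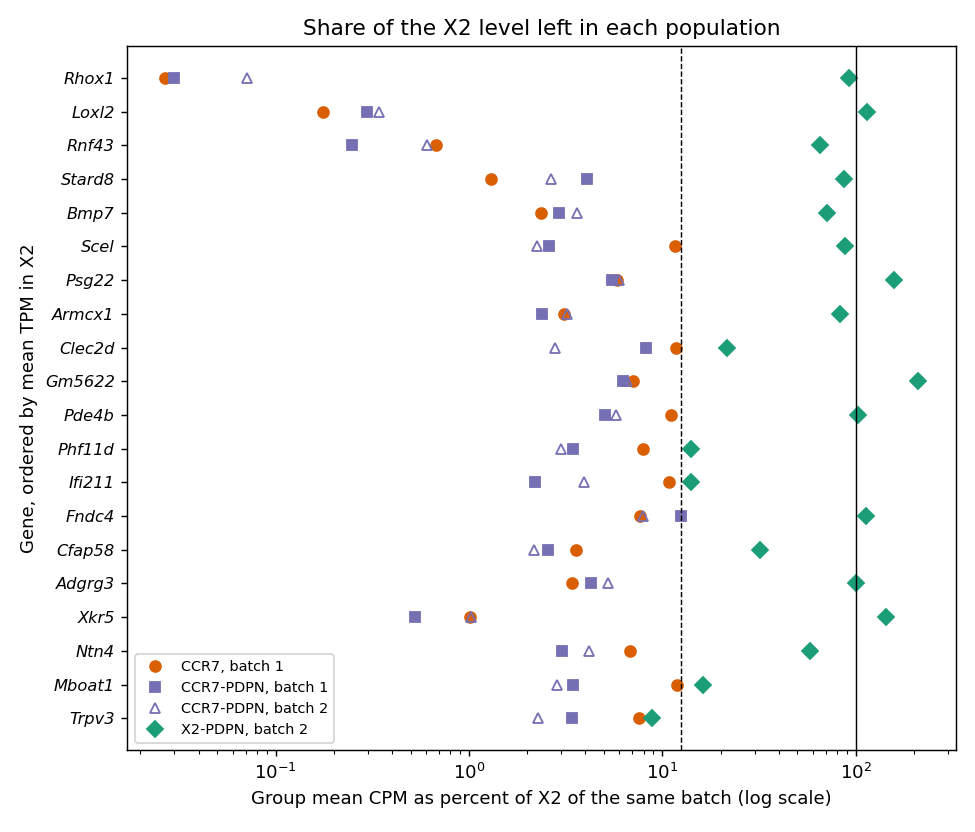
Group mean CPM as a percent of X2 of the same batch (log axis) for 20 of the 21 genes, with the selection limit of 12.5% dashed and 100% solid. The CCR7 and CCR7-PDPN points lie left of the dashed line by construction, and the X2-PDPN diamonds run from 8.84% for Trpv3 to 210% for Gm5622.

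CCR7-PDPN against X2-PDPN sets podoplanin-sorted cells with and without Ccr7 side by side within batch 2. All 21 genes were lower in CCR7-PDPN, where 6.4% of all genes were lower and 2.76% higher. The CCR7-PDPN libraries of batch 2 were among those that selected the genes, so the comparison is a description. A lower mean in CCR7-PDPN follows from the choice for every gene above 12.5% of X2 in X2-PDPN, which leaves out Trpv3 alone (8.84%). Trpv3 had 0.242 ± 0.0263 CPM (SD, n = 4) in X2-PDPN and 0.0624 ± 0.0554 CPM in CCR7-PDPN, and Ifi211 had 0.216 ± 0.0527 and 0.0610 ± 0.0534 CPM. The log2 fold changes of the 5 genes under 25% of X2 in X2-PDPN were -2.81 for Clec2d, -2.51 for Mboat1, -2.19 for Phf11d, -1.90 for Trpv3 and -1.75 for Ifi211. Without CCR7-PDPN replicate 3 of batch 2, Ifi211 was no longer called (-1.30). With X2-PDPN and CCR7-PDPN alone in the fit, Ifi211, Clec2d, Trpv3 and Mboat1 had too few reads to be tested. Other values included -10.10 for Rhox1, -8.34 for Loxl2, -6.71 for Rnf43 and -3.64 for Ntn4, where that of Rhox1 rests on 2 reads in CCR7-PDPN.

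CCR7-PDPN against CCR7, in batch 1, compares the podoplanin-positive and podoplanin-negative sorts of the Ccr7-transduced cells. Both groups had been chosen low against the same X2 libraries, and the difference between them is given as a description, since each was held to at most 12.5% of X2 and CCR7 was the closer of them to that limit for the 6 genes called lower. In the edgeR fit Scel, Ifi211, Mboat1, Rnf43, Phf11d and Pde4b were called lower in CCR7-PDPN, Stard8 was called higher, and 14 genes were not called, against 2.6% of all genes lower and 0.664% higher. The median log2 fold change was -0.51, beside -0.00327 over all genes.

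Scel had 0.469, 0.894, 0.629 and 0.539 CPM in CCR7 and 0.0938, 0.0953, 0.175 and 0.200 CPM in CCR7-PDPN, a log2 fold change of -2.14 (SE 0.32). Stard8 was the member called higher, with 0.250, 0.138, 0.269 and 0.135 CPM in CCR7 and 0.782, 0.731, 0.454 and 0.501 CPM in CCR7-PDPN (log2 fold change 1.59, SE 0.32). Neither of these 2 genes had overlapping groups, and the Stard8 level in CCR7-PDPN was still 4.08% of X2. The log2 fold change was -1.69 (SE 0.49) for Mboat1, -2.17 (SE 0.68) for Ifi211 and -1.12 (SE 0.23) for Pde4b.

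Several of these calls rested on few reads. Rnf43 (-1.39) came from 8 reads in CCR7-PDPN and 21 in CCR7, and lost its call without CCR7 replicate 3 (-1.39) or CCR7-PDPN replicate 1 (-1.16). Phf11d (-1.15) lost its call without CCR7 replicate 2 (-1.05) or without CCR7-PDPN replicate 2, 3 or 4 (-1.11, -0.95 and -1.03). Ifi211 lost its call without CCR7 replicate 2 (-1.66), and without CCR7 replicate 1 Pde4b passed below the fold limit (-0.91). Trpv3 (-1.15) was called without CCR7-PDPN replicate 3 (-2.02). With only these 2 groups in the fit, Scel and Pde4b stayed called, and Ifi211, Phf11d, Rnf43 and Mboat1 had too few reads to be tested. Loxl2 (0.72, SE 0.53) and Rhox1 (-0.04, SE 1.23) were not called, from few reads.

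**Figure D4:**
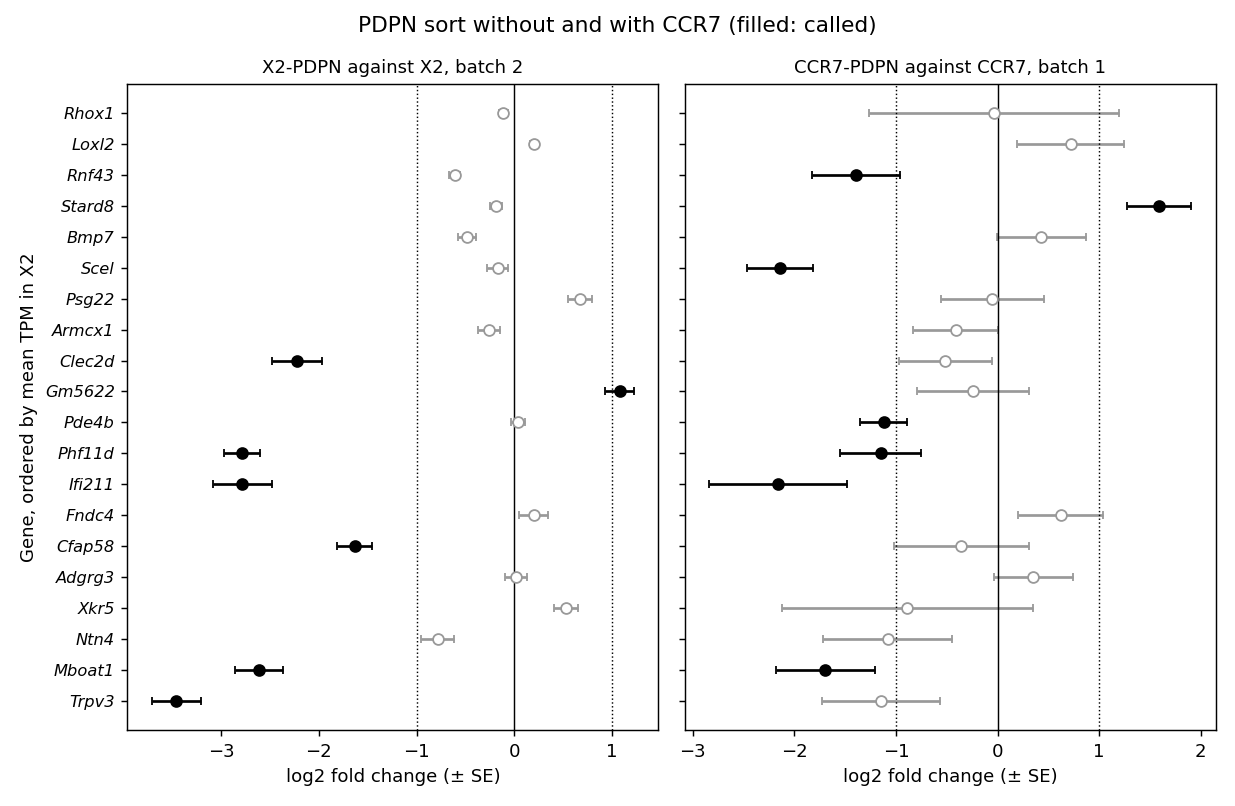
Log2 fold change with its standard error of 20 of the 21 genes for the podoplanin sort without Ccr7 (left, X2-PDPN against X2) and with it (right, CCR7-PDPN against CCR7), with filled points for called genes. On the left 6 points are called lower and Gm5622 higher, and on the right 6 are called lower and Stard8 higher, with wide error bars for Rhox1 and Xkr5.

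Relatives and partners of Loxl2 and Rnf43 were read from lists of known genes. In the lysyl oxidase family 3 of 5 genes were expressed enough to be tested. Loxl3 and Loxl4 had log2 fold changes of 0.27 and -0.07 in CCR7 against X2, and neither was called in the 6 comparisons, where Loxl3 ranged from -0.23 to 0.74 and Loxl4 from -0.13 to 0.06. Of the 20 genes of collagen crosslinking and hydroxylation, 16 were tested in batch 1, with log2 fold changes from -0.52 for Bmp1 to 0.99 for Crtap. Of the 17 tested in batch 2, the prolyl hydroxylase subunit gene P4ha3 fell in CCR7-PDPN against X2 (-2.77) and rose in X2-PDPN (1.34). Its means in batch 2 were only 0.27 CPM in X2, 0.035 CPM in CCR7-PDPN and 0.69 CPM in X2-PDPN, so these changes rest on few reads. Crtap rose in CCR7-PDPN against X2 (1.00).

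Around Rnf43, the list of its paralog, R-spondins and their Lgr receptors had 5 of 9 genes tested. The paralog Znrf3 changed by 0.22 in CCR7 against X2 and was not called in any comparison. Lgr6 (1.99) and Rspo1 (1.75) rose in X2-PDPN against X2 and were lower in CCR7-PDPN than in X2-PDPN (-1.03 and -1.43). Of 19 Wnt feedback targets and antagonists, 5 were tested. Apcdd1, a membrane inhibitor of Wnt receptors, was the one called, lower in CCR7 (-2.32) and in CCR7-PDPN (-3.56 and -3.75), and it was not called in X2-PDPN. The 5 Wnt receptors tested, out of 15, lay between -0.63 for Fzd2 and 0.51 for Lrp5 over the 6 comparisons. Among ErbB ligands and receptors 8 of 15 were tested, and Ereg was lower in CCR7 (-1.35) and in CCR7-PDPN (-1.26 and -1.29), while Areg was lower in CCR7 (-1.21) and rose in X2-PDPN (1.01).

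Interferon-stimulated genes outside the set were lower in the same groups as Ifi211. Of 30 interferon-stimulated genes in a list without the 21, 29 were tested, and 14 fell in CCR7, 26 in CCR7-PDPN of each batch and 21 in X2-PDPN against X2. Over all genes 3.18%, 5.36%, 5.67% and 1.55% were lower in these 4 comparisons. The median log2 fold change of the list was -0.96 in CCR7, -2.47 and -2.27 in CCR7-PDPN and -1.61 in X2-PDPN. In epithelial markers, 4 of 13 were tested, with a median of -0.52 in CCR7 and -0.45 in X2-PDPN, and with Grhl2 (-1.38), Krt7 (-1.25) and Ovol1 (-1.04) lower in CCR7-PDPN of batch 1. In batch 2 Grhl2 (-1.41) and Ovol1 (-1.25) were called lower in CCR7-PDPN and Krt7 (-0.90) was not. Krt8, the most abundant of the 4, was higher by less than the fold limit in CCR7-PDPN (0.37 and 0.41). Of 17 mesenchymal markers 13 were tested in batch 1, with 2 lower and 1 higher in CCR7, beside 3.18% and 3.3% of all genes. In CCR7-PDPN against X2, 3 were lower and 1 higher in batch 1, beside 5.36% and 4.09%. In batch 2, 2 of 12 were lower and 1 higher, beside 5.67% and 3.96%. The homeobox gene Prrx1 fell in CCR7 (-2.27) and CCR7-PDPN (-4.61 and -4.02), and Col3a1 rose in CCR7 (1.97) and in X2-PDPN (2.54). The authors also list Col3a1 among the genes raised in CCR7-PDPN against X2.

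Markers of other cell types were checked for the same pattern. The 7 myeloid markers summed to 9.63 CPM in X2, 3.88 CPM in CCR7 and 2.37 CPM in CCR7-PDPN of batch 1. The 3 of them listed in batch 2 (Lyz2, Cd14 and Itgax) summed to 10.3 CPM in X2, 8.81 CPM in X2-PDPN and 2.00 CPM in CCR7-PDPN. Lyz2, the lysozyme gene of macrophages, had 6.91 CPM in X2 of batch 1, 1.87 CPM in CCR7 and 0.712 CPM in CCR7-PDPN, and fell in CCR7 (-1.88) and CCR7-PDPN (-3.24 and -3.70). Cd14 had 1.96, 1.73 and 1.38 CPM in the same groups of batch 1, more than Lyz2 in CCR7-PDPN. Itgax fell in CCR7-PDPN of batch 2 (-1.78), from a mean of 0.56 CPM in X2 to 0.15 CPM. The pan-leukocyte marker Ptprc had at most 0.128 CPM in a library of batch 1, Adgre1 at most 0.0688 CPM and Csf1r at most 0.281 CPM. Their part in the losses was not tested. Cd79a, 1 of 4 B cell markers and the one tested, was higher in CCR7 (2.21), CCR7-PDPN (2.71 and 2.35) and X2-PDPN (1.73), while Ms4a1 had 0 counts in batch 1. Among 7 endothelial markers, which summed to at most 1.50 CPM in a library of batch 1, 3 were tested, and Cdh5 fell (-1.48) and Pecam1 rose (1.15) in X2-PDPN against X2. Fibroblast and pericyte markers gave 203 to 256 CPM in batch 1, carried by Pdgfra and Pdgfrb, the 2 of 6 that were tested, whose log2 fold changes ran from -0.33 to 0.26, and Lum was at 0.

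The 21 genes lay on 13 chromosomes, in the GRCm38 coordinates of the count table. Loxl2 spans chr14:69609068-69695834 and Rnf43 chr11:87662722-87735539, both on the plus strand. Chromosome 14 held 4 of them (Gm5622, Phf11d, Loxl2 and Scel), 19.0% of the set against 3.38% of the 11197 eligible genes. The X chromosome held 3 (Rhox1, Stard8 and Armcx1), 14.3% against 3.07%. Neighbouring members on a chromosome were 7.81 to 76.1 Mb apart, so no pair lay in 1 locus.

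Chromosome 14 as a whole was lower in the Ccr7-transduced cells. Leaving the 4 genes out, the median log2 fold change of 428 genes on chromosome 14 was -0.44 in CCR7 against X2 and -0.56 in CCR7-PDPN of batch 1, and that of 432 genes was -0.58 in CCR7-PDPN of batch 2. In each case it was the lowest of 20 chromosomes. In X2-PDPN against X2 it was -0.04. Subtracting the chromosome 14 median left -8.61 for Loxl2, -3.21 for Gm5622, -3.16 for Phf11d and -2.63 for Scel in CCR7 against X2. The X chromosome had a median of -0.01 and chromosome 11, with Rnf43 and Trpv3, of 0.0032 in the same comparison.

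Genes close to the 21 were compared as neighbours, defined by a 5′ end within 500 kb of that of a member, with 1 to 33 tested neighbours for each. In CCR7 against X2, 7 of 184 neighbours (3.80%) were lower and 5 (2.72%) higher, near the 3.18% and 3.3% over all genes. In CCR7-PDPN against X2, 14 of 184 (7.61%) were lower in batch 1 and 17 of 187 (9.09%) in batch 2, where all genes gave 5.36% and 5.67%. In X2-PDPN against X2, 6 of 187 (3.21%) were lower and 11 (5.88%) higher, beside 1.55% and 3.51% over all genes. CCR7-PDPN had 9 of 184 (4.89%) lower than CCR7, beside 2.6%, and 23 of 187 (12.3%) lower than X2-PDPN, beside 6.4%. The median of the neighbours was -0.08 in CCR7 against X2. Around Loxl2, 7 neighbours had a median of -0.46, beside -0.44 for chromosome 14, and the lowest was Slc25a37 with -0.69. The 13 neighbours of Rnf43 had a median of -0.03, the lowest at -0.35, and Tspoap1, 97.8 kb downstream, rose (1.41). The 17 neighbours of Rhox1 had a median of -0.10, the lowest at -0.45. The 3 neighbours of Xkr5, on chromosome 8, had a median of -0.59 in CCR7 against X2, beside -0.12 for that chromosome. Their median was -0.58 and -0.63 in CCR7-PDPN against X2 and -0.08 in X2-PDPN against X2.

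Neighbours of Ifi211 and Clec2d were among those with the largest falls. Mndal, which overlaps Ifi211 on the same strand, had 58 reads in X2 of batch 1, 0 in CCR7 and 3 in CCR7-PDPN, and its mean of 0.511 CPM in X2 was under the minimum for the set. Where Mndal and Ifi211 overlap, their reads cannot be told apart, so both counts are uncertain. Ifi204, 146 kb from Ifi211, fell in CCR7 (-2.57). Cd69, 94.8 kb from Clec2d, fell in CCR7 (-1.25), CCR7-PDPN (-4.10 and -4.83) and X2-PDPN (-2.03).

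**Figure D5:**
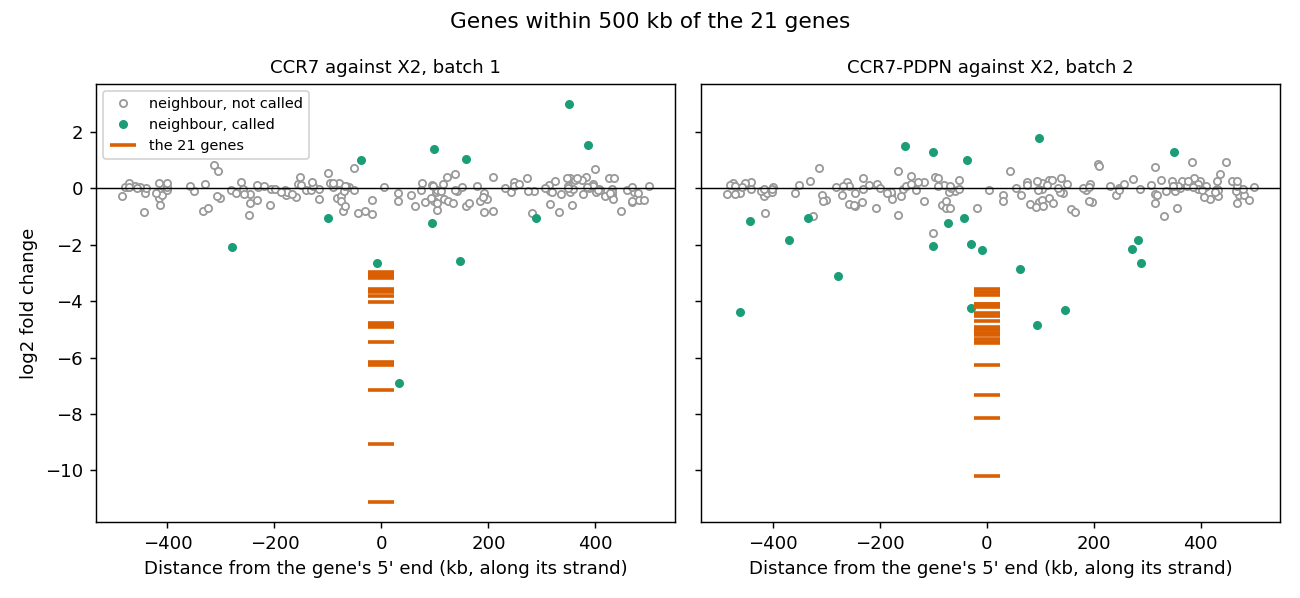
Log2 fold change of tested genes within 500 kb of the 21 genes against their distance from the 5′ end of the member, measured along the member's strand, for CCR7 (left, batch 1) and CCR7-PDPN (right, batch 2) against X2. Most neighbours sit near 0 at all distances, and the 21 genes (orange bars at distance 0) lie below nearly all of them.

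Promoter sequences were taken for 16 of the 21 genes from RefSeq (GRCm38.p6), as windows from 250 bases before to 50 bases after a transcript start, choosing the start nearest to the 5′ end in the count table. The chosen start lay 39333 bases away for Stard8 and 334012 bases away for Pde4b, and at most 368 bases away for the others. Bmp7, Loxl2, Psg22 and Xkr5 were among those with no window. In these 300 bases the 16 genes had a median of 7.5 CG pairs, with 6 genes at 5 or fewer (37.5%). Of 8614 eligible genes with a window, the median was 22 and 6.90% had 5 or fewer, whereas over all 32851 windows the median was 7 and 43.6% had 5 or fewer. The CG-poor windows were those of Rhox1, Ifi211, Phf11d, Trpv3, Gm5622 and Clec2d, and Ntn4 (31), Mboat1 (29) and Cfap58 (22) had as many CG pairs as the typical eligible gene or more. Clec2d, Ifi211 and Armcx1 held the interferon-response core GAAANNGAA (N for any base) on either strand, 3 of 16 (18.8%) against 6.88% of eligible genes and 8.56% of all windows.

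The windows of 4 genes are shown to span this range, each 5′ to 3′ on the gene's own strand, with the CG pairs in capitals. Rhox1, which had almost no reads with Ccr7, has no CG pair at chrX:37222209-37222508 (minus strand). Trpv3, which also fell in X2-PDPN, has 4 at chr11:73267270-73267569 (plus strand), Rnf43 has 10 at chr11:87662837-87663136 (plus strand), and Mboat1 has 29 at chr13:30136240-30136539 (plus strand).
Rhox1: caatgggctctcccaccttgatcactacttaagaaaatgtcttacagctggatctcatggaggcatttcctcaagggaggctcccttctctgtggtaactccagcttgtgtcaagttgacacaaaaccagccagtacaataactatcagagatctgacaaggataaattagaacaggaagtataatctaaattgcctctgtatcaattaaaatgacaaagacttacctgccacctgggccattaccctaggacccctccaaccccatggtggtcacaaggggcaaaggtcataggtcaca
Trpv3: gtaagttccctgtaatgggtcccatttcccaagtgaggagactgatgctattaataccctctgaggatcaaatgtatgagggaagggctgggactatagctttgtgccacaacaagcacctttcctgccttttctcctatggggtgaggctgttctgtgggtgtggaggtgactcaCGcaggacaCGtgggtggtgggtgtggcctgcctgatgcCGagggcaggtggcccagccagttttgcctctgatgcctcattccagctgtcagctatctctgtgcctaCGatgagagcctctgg
Rnf43: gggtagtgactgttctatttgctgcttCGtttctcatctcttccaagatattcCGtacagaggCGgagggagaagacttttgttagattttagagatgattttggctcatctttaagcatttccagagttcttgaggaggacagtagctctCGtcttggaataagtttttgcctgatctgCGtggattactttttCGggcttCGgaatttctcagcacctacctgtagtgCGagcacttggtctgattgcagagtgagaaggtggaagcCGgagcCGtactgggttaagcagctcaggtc
Mboat1: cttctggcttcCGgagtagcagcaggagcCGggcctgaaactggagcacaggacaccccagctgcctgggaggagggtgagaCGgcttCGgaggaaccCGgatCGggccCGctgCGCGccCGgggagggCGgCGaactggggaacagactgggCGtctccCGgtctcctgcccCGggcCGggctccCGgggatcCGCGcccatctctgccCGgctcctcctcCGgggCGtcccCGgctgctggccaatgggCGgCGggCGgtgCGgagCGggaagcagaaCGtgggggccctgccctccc

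Levels are set beside these windows as a description. Trpv3, with 4 CG pairs, and Mboat1, with 29, both fell in X2-PDPN, to 8.84% and 16.3% of X2, while Rhox1, with none, stayed at 92.0% and Rnf43 at 65.0%. Of the CG-poor windows named above, Trpv3, Ifi211, Phf11d and Clec2d were called lower in X2-PDPN, Gm5622 was called higher and Rhox1 was not called. Of the other genes with a window, Mboat1 and Cfap58 were called lower. A link with CG pairs was not tested. In CCR7, Trpv3 kept 7.58% of X2, Mboat1 11.9%, Rnf43 0.680% and Rhox1 0.0268%, the last from 1 read in all. The median exonic length was 3741 bases for the 21 genes and 4414 bases for the eligible genes.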

How the data were processed

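Poly(A) RNA of 24 libraries was read single-end with a stranded kit. The authors deposited raw read counts per gene in a table for each batch, without pooling replicates. Batch 1 was counted per Ensembl gene with featureCounts on GRCm38/mm10, and the aligner is not given in the sources used here. The counter of batch 2, and the rule that left fewer genes in its table, are not given either. Every sample column was matched to a labelled sample.

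CPM was the count over the column total, and TPM used the exonic lengths of the tables. Counts were compared with edgeR 4.0.16 (TMM scaling, filterByExpr, robust quasi-likelihood F test, all 3 groups of a batch in 1 fit) in R 4.3.3, with Benjamini-Hochberg adjustment over 13261 genes in batch 1 and 13314 in batch 2. A call needed an adjusted p under 0.05 and a log2 fold change above 1 in size. Standard errors were taken as the fold change over the square root of F. The fit was also run on simulated counts with the same spread setting for all genes, and nothing is read from that run here. Depth was 22275468 to 35721027 counts a library, and exact 95% intervals on sums of few reads cover counting error only. Replicates differed by more than sampling noise in all 36 pairs (chi-square per degree of freedom 2.07 to 22.7), so each counted as 1 library.

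The members and the gene lists (lysyl oxidase family, collagen crosslinking, RNF43/ZNRF3 and R-spondins, Wnt receptors, Wnt feedback, ErbB, interferon-stimulated genes and markers of epithelial, mesenchymal and other cells) were chosen with earlier results of these data known. Genes named with full values were Loxl2, Rnf43, the 4 other members highest in X2 by TPM, up to 3 largest rises and falls in X2-PDPN against X2 and in CCR7-PDPN against CCR7, the genes at the selection limit, and up to 4 called genes per list and among neighbours. The values of 1 member are not reported here, and it stays in the counts, medians and sums. P4ha3, Apcdd1, Slc25a37 and Tspoap1 are named as single features. Alternatives were DESeq2 1.42.0, RLE scaling, other filters, other limits, a replicate block and leaving out each library. The heatmap adds 0.1 CPM before the logarithm. Promoter windows came from RefSeq (GRCm38.p6). Python 3.11.15 with scipy 1.17.1 and matplotlib 3.10.9 made the tables and figures.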

Additional observations from a re-analysis of the deposited data

Results flagged for a closer look

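In 8 of 126 groups of 4 libraries, 1 library of a member stood apart by Dixon's test, where chance gives about 1 in 20. In 6 of them the library that stood apart held 3 reads or fewer: Rhox1 in CCR7-PDPN replicate 3 of batch 1 (0.0349 CPM, 1 read, the others at 0) and in CCR7 replicate 1 (0.0312 CPM, 1 read), Xkr5 in CCR7-PDPN replicate 2 of batch 1 (0.0635 CPM, 2 reads), Clec2d in CCR7-PDPN replicate 3 of batch 1 (0.105 CPM against 0.156 to 0.167), Rnf43 in CCR7-PDPN replicate 3 of batch 2 (0.0942 CPM against 0.176 to 0.191) and Mboat1 in CCR7-PDPN replicate 1 of batch 2 (0.132 CPM against 0.0314 to 0.0364). The others were X2 libraries of batch 1, with Gm5622 at 2.35 CPM in replicate 2 against 1.48 to 1.51 CPM, and Phf11d at 4.92 CPM in replicate 4 against 3.48 to 3.69 CPM. The chance rate of 1 in 20 is for continuous values. It does not apply to the Rhox1 and Xkr5 groups named here, since a group with reads in 1 library alone is always flagged.

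The podoplanin difference with Ccr7 (CCR7-PDPN against CCR7, batch 1) was tested against that without it (X2-PDPN against X2, batch 2) as an interaction in edgeR over 13690 genes, of which 5585 had an adjusted p under 0.05. Batch and Ccr7 cannot be told apart in it. The values of both CCR7-transduced groups had selected the genes and were held to at most 12.5% of X2. The adjusted p-values are therefore given as what flagged these genes and support nothing about them. Stard8 differed by 1.78 on the log2 scale (SE 0.30, adjusted p 8.42e-06), with 1.59 against -0.19. Scel differed by -1.97 (adjusted p 1.44e-05) and Pde4b by -1.16 (adjusted p 7.45e-05), where both were lower in CCR7-PDPN than in CCR7 and were not called without Ccr7. Trpv3 differed by 2.31 (adjusted p 0.0154), Clec2d by 1.71 (adjusted p 0.0187) and Phf11d by 1.64 (adjusted p 0.0101), all with the deeper fall in X2-PDPN, from a higher starting level.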

How the results depend on the processing

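The choice of the 21 genes depended on its limits, with 69 genes at a ratio of 1/4 and 10 at 1/16, and it held 17 to 22 genes when 1 library was left out, the lowest without CCR7 replicate 1. TMM-scaled CPM left 19, without Fndc4. With no fold limit, 12 members were lower and 4 higher in X2-PDPN against X2. The share over all genes without a fold limit was not taken, so nothing is read from these 2 counts. Leaving out 1 library gave 7 lower and 1 higher in X2-PDPN against X2 each time. It gave 20 to 21 lower in CCR7-PDPN against X2-PDPN, and 5 to 6 lower and 1 higher in CCR7-PDPN against CCR7. With only the 2 groups compared in the fit, 2 members were lower in CCR7-PDPN against CCR7, since the other 4 no longer passed the filter on low counts. DESeq2 gave the same counts of 7, 1, 21, 1 and 6.

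Same-numbered replicates did not deviate together (r from -0.246 to 0.116 in batch 1 and from -0.047 to 0.243 in batch 2, over 12 pairs each), so the numbers were not taken as pairs, and a replicate block left the counts at 7 lower and 1 higher in X2-PDPN against X2, 21 lower in CCR7-PDPN against X2-PDPN, and 6 lower and 1 higher in CCR7-PDPN against CCR7.

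Among uncalled values, leaving out a library turned the sign of Pde4b (range -0.00317 to 0.079) and Adgrg3 (-0.0751 to 0.151) in X2-PDPN against X2, and of Rhox1 (-1.59 to 1.55), Psg22 (-0.546 to 0.291), Xkr5 (-3.17 to 0.366), Gm5622 (-0.448 to 0.341) and Cfap58 (-0.884 to 0.00943) in CCR7-PDPN against CCR7. The depth gave at most a few reads per library for the lowest genes in CCR7-transduced cells, which limits comparisons between those groups. The interaction was refitted with RLE scaling, without a filter and with the block, alternatives chosen after seeing the data, and its 6 calls kept their sign and their side of the threshold.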

Other observations

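In the opposite direction to the 21 genes, 11 genes were at least 8-fold higher in all 3 CCR7-transduced groups, chosen by the mirror of the same rule and given without a test. Besides Ccr7 they were Col6a3, Cryzl2, Xlr4c, Tmsb4x, Slc16a4, Anks1b, 4732419C18Rik, Mrc2, Ckmt2 and Pcdhgb1. Col6a3, a chain of collagen VI, had 1.92 CPM in X2 and 15.4 CPM in CCR7 of batch 1, with 131 CPM in CCR7-PDPN, and 13.5 CPM in X2-PDPN. A further 28 genes met the 3 ratio limits but had an X2 mean under 1 CPM in a batch, and were left out for that reason.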
